A study of Mus musculus with 9 samples.

Results

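RNA from the dorsal telencephalon, the part of the embryonic and newborn forebrain that forms the cerebral cortex and hippocampus, was compared between mice labelled TCF4 knockout (KO) and mice labelled wildtype (WT). The comparison takes 6 of the 9 libraries of the series, 3 KO and 3 WT, chosen by their labels alone. The other 3, labelled TCF4 heterozygote (Het), enter the choice of genes to test, the scaling and the shared estimate of spread, but no contrast. All came from newborn pups (P0) of the strain labelled B6:129SF2/J, the dissected tissue was snap frozen, and no treatment is named. Which exons of Tcf4 were deleted is not stated in the labels. Nor do they tell if separate pups gave the libraries, so a p-value measures the spread between these samples, which may be technical. The question was which genes outside the usual cell type lists differed between the genotypes: genes of metabolism and signalling, transcription factor families, extracellular matrix and adhesion.

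Tcf4 encodes an E protein, a broadly expressed kind of basic helix-loop-helix (bHLH) transcription factor. E proteins pair with each other or with tissue-restricted bHLH factors such as the neurogenin and NeuroD factors, and the pair binds short DNA words called E-boxes. Id proteins have the helix-loop-helix part but no DNA-binding part, and so keep E proteins from DNA. In the developing forebrain these pairs are known for driving progenitors towards neurons.

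Total counts ran from 26355671 to 29445788 in the KO libraries and from 22291940 to 23813314 in the WT libraries, so every KO library was deeper than every WT library. Gene-level Tcf4 reads did not separate the genotypes: the KO libraries held 638, 633 and 611 CPM (counts scaled by library depth) and the WT libraries 712, 728 and 584 CPM. These ranges overlapped (log2 fold change -0.105, SE 0.09, adjusted p = 0.36, edgeR's quasi-likelihood test). Without WT replicate 3 the Tcf4 value was -0.20 with adjusted p = 0.046. A total over all exons would not reveal the loss of some of them, and directions below rest on the labels. Processed pseudogenes took 0.0804% to 0.0939% of reads in KO and 0.253% to 0.313% in WT, and mitochondrial genes 0.716% to 0.771% in KO and 1.01% to 1.14% in WT. KO replicate 3 had 2730 counts of the X-inactivation RNA Xist and 2 of the Y-linked Ddx3y, while the other KO and all WT libraries had at most 3 of Xist and at least 794 of Ddx3y. WT replicate 2 had 1926 counts of the immediate early gene Fos, and the other KO and WT libraries had 28 to 95. The part of these differences between libraries in the results below was not tested.

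Dorsal telencephalic markers were counted in both genotypes, and hindbrain and cord markers in neither. Summed CPM of 10 dorsal telencephalic excitatory markers was 2783 to 2837 in KO and 2213 to 2504 in WT, and all 8 hindbrain and cord markers (Hox genes) were at 0 in all KO and WT libraries. Thalamus and midbrain markers were counted too, at sums of 61.7 to 66.2 in KO and 56.2 to 99.2 in WT. Of 6 tested members, 2 were called lower and 0 higher. Sums of 10 cortical progenitor markers were 1007 to 1053 in KO and 822 to 841 in WT. Of the excitatory markers 5 were called higher and 2 lower, and of the progenitor markers 6 and 1. Markers of neurons of the striatum, a structure below the cortex, summed to 68.7 to 72.5 in KO and 391 to 424 in WT, with 11 of 12 called lower and none at 0 in a whole group. Lower in KO were also the sums for interneurons (677 to 752 against 919 to 973, 8 of 12 called lower and 1 higher), astrocytes (722 to 781 against 1148 to 1218, 7 of 9 tested called lower), the oligodendrocyte lineage (233 to 269 against 455 to 489, 10 of 10) and microglia (78.9 to 84.6 against 123 to 140, 7 of 10). Endothelial sums were 202 to 212 in KO and 185 to 187 in WT, pericyte sums 215 to 226 and 165 to 169, and choroid plexus sums 28.6 to 50 and 21.7 to 23.4. Members of these 3 lists did not all follow the sums. Called higher and lower were 4 and 2 of 10 endothelial markers and 3 and 2 of 10 pericyte markers (median log2 fold change -0.02). Of 8 tested choroid plexus markers, 2 were called higher and 0 lower. In bulk tissue, fewer cells of a type and less RNA per cell cannot be told apart. Nor can either be told from a different share of neighbouring tissue, such as striatum, in the dissections.

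**Figure D1:**
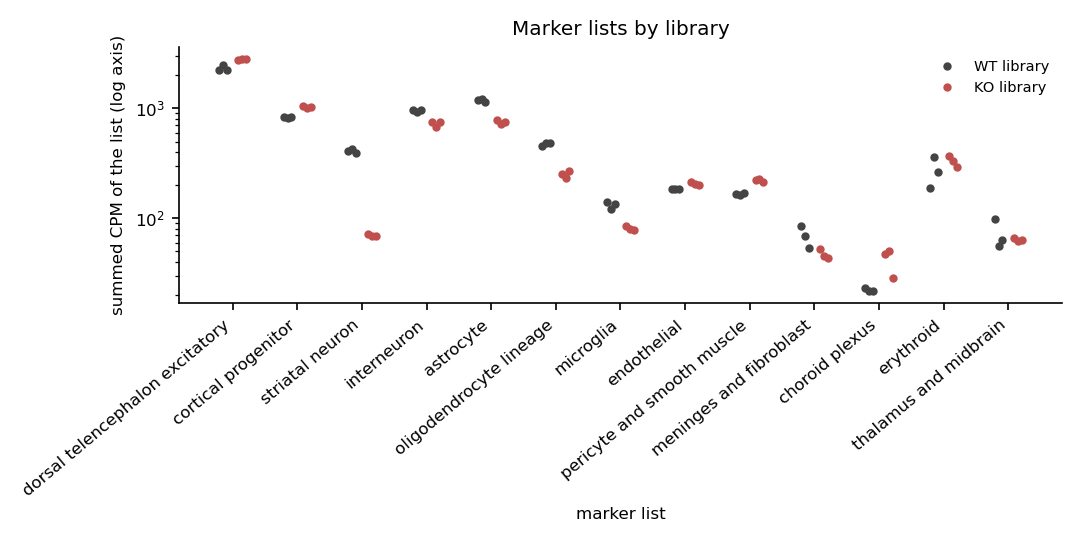
Summed CPM (log axis) of each marker list in the 3 WT (grey) and 3 KO (red) libraries, 1 point per library. The striatal sums stand farthest apart, at 391 to 424 in WT and 68.7 to 72.5 in KO, while the dorsal excitatory and progenitor sums lie somewhat higher in KO.

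Of 15271 genes with enough counts to test, 8061 (52.8%) were called at an adjusted p under 0.05, 4042 (26.5%) higher and 4019 (26.3%) lower in KO. The median log2 fold change over all of them was 0.01. A change of at least 1.5-fold was called for 3420 genes (22.4%), 1650 (10.8%) higher and 1770 (11.6%) lower. With limma on log2(FPKM + 1), which compresses changes of genes with low values, 2075 genes were called at that size. The 3 KO values and the 3 WT values did not overlap for 62.7% of the tested genes, so a lack of overlap is common here and by itself sets no gene apart. Each list below is read against these shares.

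**Figure D2:**
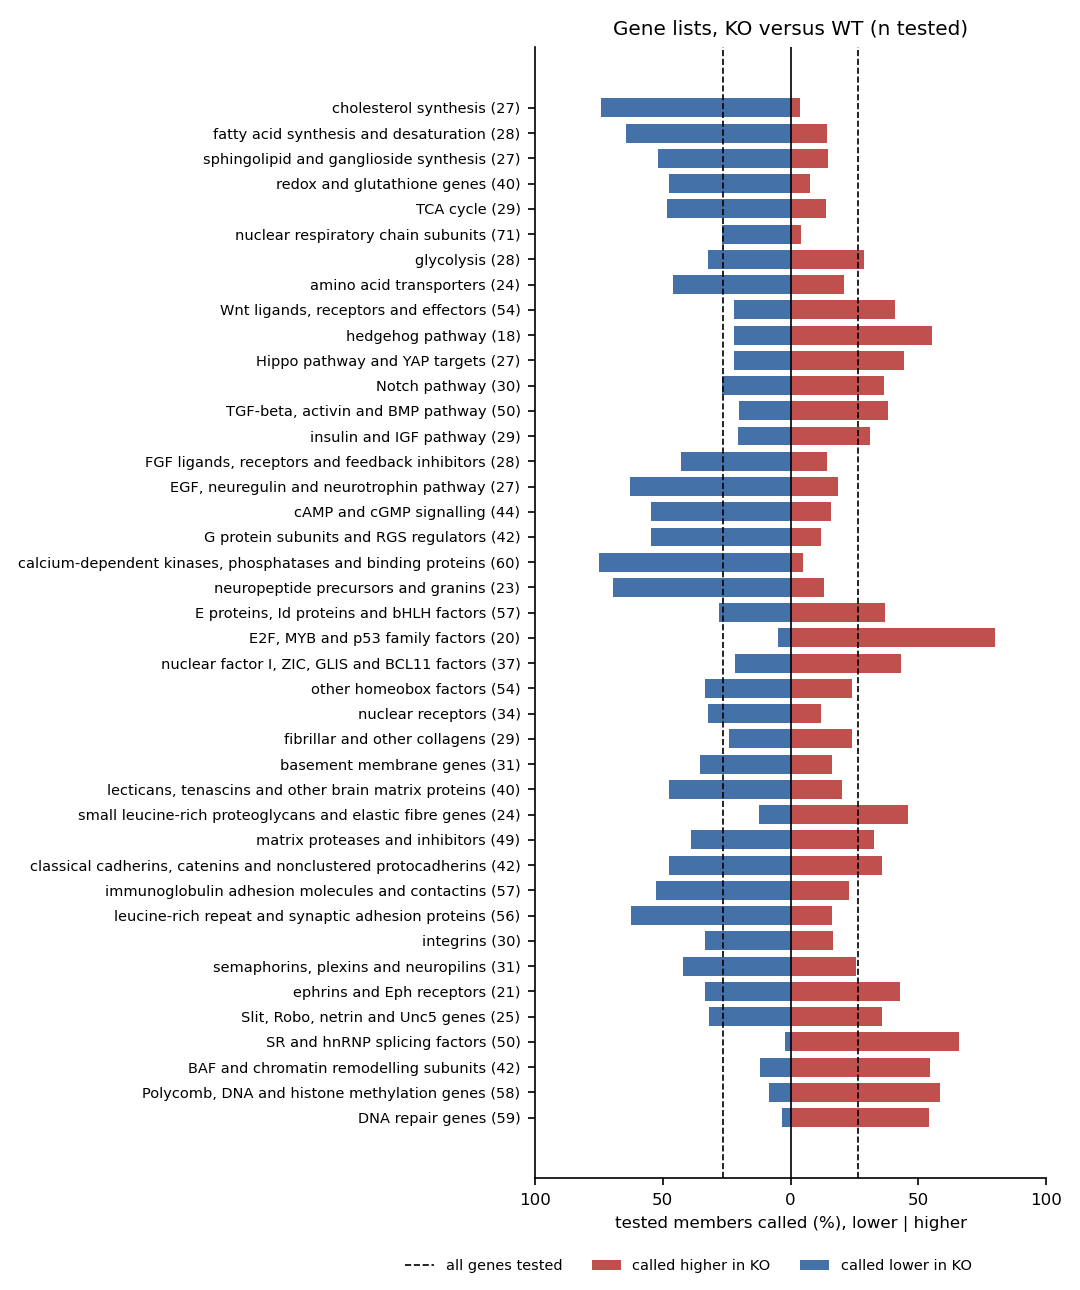
Share of the tested members of each gene list that were called higher (red, to the right) or lower (blue, to the left) in KO, with the number tested in brackets and dashed lines at the shares over all genes tested, 26.5% and 26.3%. Lipid synthesis, calcium signalling and neuropeptide lists lie mostly to the left, and E2F, splicing, methylation and DNA repair lists mostly to the right.

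The partners of Tcf4 were themselves measured at different levels in the 2 genotypes. Tcf12, one of the other E proteins, was counted at 117, 111 and 116 CPM in KO and 70.7, 67.6 and 66.8 CPM in WT. Every KO library lay above every WT library (log2 fold change 0.75, SE 0.05, adjusted p = 5.5e-09). Tcf3, the remaining E protein, showed the same order, with 98.3 ± 3.37 against 62.2 ± 2.22 CPM (log2 fold change 0.66, SE 0.06, adjusted p = 2.3e-07, mean ± SD, n = 3 per group, as for all such pairs below, KO first). Among the Id genes, Id2 fell from 87.7, 118 and 113 CPM in WT to 40.1, 37.4 and 36.6 CPM in KO, with no overlap (log2 fold change -1.48, SE 0.11, adjusted p = 1.3e-06). Id3 (-0.63) and Id4 (-0.63) fell as well, and Id1, at 11.9 ± 3.36 against 10.04 ± 0.681 CPM, was not called (adjusted p = 0.39). Without KO replicate 3 the Id1 value was 0.47 with adjusted p = 0.033.

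Several tissue-restricted bHLH factors of the neuronal lineage were higher in KO. Neurod6, a factor of differentiating excitatory neurons, was at 645, 675 and 743 CPM in KO and 334, 431 and 379 CPM in WT. Its lowest KO library was above its highest WT library (log2 fold change 0.85, SE 0.10, adjusted p = 5.0e-05). The related Neurod2 (594 ± 16.4 against 389 ± 21.8 CPM, 0.61 in log2) and Nhlh2 (1.59) also rose. The PAS-domain factor Npas2 fell (5.23 ± 0.566 against 14.9 ± 0.594 CPM, -1.51). Over the whole list of 57 tested E proteins, Id proteins and other bHLH factors, 21 were higher and 16 lower, with a median of 0.06, which ran from -0.03 to 0.09 over the alternatives. The list as a whole leaned little to either side.

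Promoter sequence was examined for the E-box words that E protein pairs bind: the word CAGCTG, the word CACCTG, which reads CAGGTG on the other strand, and lastly the word CATATG, all searched on both strands. RefSeq promoters on GRCm38.p6, each spanning 250 bases before to 50 after a transcript start, were matched for 11504 of the 15271 tested genes, with several starts for some genes and starts inside the gene for some. At least 1 of the words was in 35.8% of all 32851 promoters and in 32.2% of the 14763 promoters of tested genes. Among 818 promoters of genes called at least 2-fold lower in KO the share was 40.6%, among 577 promoters of genes at least 2-fold higher it was 31.4%, and among 6893 promoters of genes that were not called it was 31.7%. CAGCTG alone was in 19.6% of the promoters of the lower genes, 14.7% of those of the higher genes and 15.6% of those of all tested genes. The word CACCTG, on either strand, was in 22.9%, 17.5% and 18.3%, and CATATG in 2.32%, 3.29% and 1.93%. The median GC content was 58.3% for the lower genes, 57.3% for the higher genes and 60.7% for all tested genes. These shares are descriptions with no test, and a matching word is not a bound site.

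The promoters of 2 genes with large falls and 1 with a large rise, chosen after their values were seen, are printed 5′ to 3′ from RefSeq (GRCm38.p6), to show where such words lie. Capitals mark a searched E-box word. Cdk5r2 has CAGCTG, Tgfa has CAGGTG, and the window of Ncapd2 holds none of the words searched.
Cdk5r2 promoter, chr1:74854779-74855078, plus strand: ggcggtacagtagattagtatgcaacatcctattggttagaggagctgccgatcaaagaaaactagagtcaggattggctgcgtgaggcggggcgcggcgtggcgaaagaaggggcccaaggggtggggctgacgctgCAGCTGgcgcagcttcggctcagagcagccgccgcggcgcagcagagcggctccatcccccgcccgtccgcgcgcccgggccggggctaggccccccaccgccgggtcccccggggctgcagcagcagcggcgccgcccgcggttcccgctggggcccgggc
Tgfa promoter, chr6:86194972-86195271, plus strand: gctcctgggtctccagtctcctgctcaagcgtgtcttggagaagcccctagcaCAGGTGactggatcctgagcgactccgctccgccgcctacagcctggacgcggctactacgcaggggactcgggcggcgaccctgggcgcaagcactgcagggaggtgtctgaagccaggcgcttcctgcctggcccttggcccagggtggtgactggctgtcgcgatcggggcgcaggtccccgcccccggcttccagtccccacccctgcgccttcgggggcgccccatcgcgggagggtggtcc
Ncapd2 promoter, chr6:125191537-125191836, minus strand: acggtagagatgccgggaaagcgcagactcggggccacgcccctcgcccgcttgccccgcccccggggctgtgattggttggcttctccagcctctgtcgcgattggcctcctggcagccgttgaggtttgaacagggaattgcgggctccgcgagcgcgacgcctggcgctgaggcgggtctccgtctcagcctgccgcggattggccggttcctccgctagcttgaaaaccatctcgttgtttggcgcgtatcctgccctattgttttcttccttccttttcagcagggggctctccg

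Cdk5r2 (chromosome 1, 74854934 to 74857732, plus strand) encodes p39, an activator of the neuronal kinase Cdk5. It was counted at 343, 335 and 344 CPM in WT and 66.1, 57.96 and 50.5 CPM in KO. The WT libraries lay close together and every KO library was far below them (5.86-fold lower, log2 fold change -2.55, SE 0.08, adjusted p = 3.4e-12). Tgfa (chromosome 6, 86195223 to 86275719, plus strand), a ligand of the EGF receptor, was at 96.3, 99.2 and 104 CPM in WT and 15.6, 11.8 and 17.2 CPM in KO. Again no KO value came near a WT value (6.69-fold lower, log2 fold change -2.74, SE 0.10, adjusted p = 2.1e-11).

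Ncapd2 (chromosome 6, 125168007 to 125191701, minus strand), a subunit of the condensin complex that compacts chromosomes, was at 113, 117 and 108 CPM in KO and 25.5, 24.2 and 26.9 CPM in WT. All 3 KO libraries were higher (4.41-fold, log2 fold change 2.14, SE 0.07, adjusted p = 3.5e-13). Cdon (chromosome 9, 35421128 to 35507652, plus strand), a cell surface co-receptor for hedgehog ligands, was at 65.5, 69.3 and 56.7 CPM in KO and 16.4, 19.2 and 15.1 CPM in WT. The ranges were far apart (3.78-fold higher in KO, log2 fold change 1.92, SE 0.10, adjusted p = 2.4e-10).

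Among the metabolic lists, cholesterol and fatty acid synthesis had the highest shares of lower members. Of 27 tested cholesterol synthesis genes, 20 were lower in KO, 1 higher and 6 not called (median log2 fold change -0.31, against 0.01 over all genes). Most of these falls were small: 7 of them reached 1.5-fold. Sqle, the squalene epoxidase, was at 205, 202 and 201 CPM in KO and 269, 277 and 279.9 CPM in WT (log2 fold change -0.44, SE 0.05, adjusted p = 2.9e-06). The KO libraries were lower without overlap. The mevalonate decarboxylase Mvd (-0.39) and the last enzyme of 1 branch, Dhcr7 (-0.49), fell as well. Hsd17b7, a sterol ketoreductase, changed most, from 33.01, 36.3 and 31.7 CPM in WT to 13.5, 12.9 and 16.6 CPM in KO. No values overlapped (log2 fold change -1.23, SE 0.10, adjusted p = 2.3e-08). The single higher gene was Insig2 (0.36), which retains the sterol sensor in the endoplasmic reticulum.

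Fatty acid genes gave a similar picture. Lower in KO were 18 of 28 tested genes, and 4 were higher (median -0.32). Fatty acid synthase, Fasn, was at 1079 ± 46.9 against 1341 ± 77.6 CPM (-0.31). Lpl, the lipase that releases fatty acids from lipoproteins, was at 25.4, 26.01 and 24.9 CPM in KO and 111, 90.02 and 81.9 CPM in WT. The WT libraries were spread more widely, but the lowest was still far above the KO libraries (log2 fold change -1.89, SE 0.17, adjusted p = 3.5e-05). The acyl-CoA synthetases Acsbg1 (-1.27) and Acsl4 (-1.01) fell, while Thrsp, a regulator of lipogenic genes, rose (11.8 ± 1.87 against 3.28 ± 1.23 CPM, 1.85). Of 27 sphingolipid and ganglioside genes 14 were lower and 4 higher, with the myelin lipid enzyme Ugt8a at -0.89 and Gal3st1 at -1.52. The fatty acid oxidation list (6 higher, 7 lower of 25) was near the shares over all genes. Astrocyte and oligodendrocyte marker sums, given above, were lower in the same libraries, and their part in the lipid results was not tested.

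In energy metabolism, glycolysis genes were split, while the TCA cycle and redox lists had more lower than higher members. Of 28 glycolysis genes, 8 were higher and 9 lower. Slc2a1, the glucose transporter of the blood-brain barrier, was at 98.005, 95.4 and 91.7 CPM in KO and 40.3, 43.8 and 40.7 CPM in WT. All KO libraries were higher (log2 fold change 1.19, SE 0.09, adjusted p = 4.2e-08). Eno2, the neuronal enolase, went the other way, at 75.1, 74.2 and 65.4 CPM in KO and 156, 147 and 161 CPM in WT, also without overlap (log2 fold change -1.11, SE 0.06, adjusted p = 4.8e-10). The lactate and pyruvate carrier Slc16a1 fell (-0.801) and hexokinase Hk2 rose (0.56). In the TCA cycle 14 of 29 genes were lower and 4 higher, with Ogdh, a subunit of the oxoglutarate dehydrogenase complex, at -0.59 and the mitochondrial isocitrate dehydrogenase Idh2 at 0.59. Of 71 nuclear-encoded respiratory chain subunits 19 were lower and 3 higher, a count that ran from 7 to 27 lower over the alternatives, and 49 were not called. Of 40 redox and glutathione genes 19 fell and 3 rose, with the glutathione transferase Gsta4 among the lower ones (3.58 ± 0.648 against 10.3 ± 0.571 CPM, -1.52).

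The hedgehog and Wnt pathways had more higher than lower members. In the hedgehog pathway 10 of 18 tested genes were higher and 4 lower (median 0.28). Beside the co-receptor Cdon, the signal transducer Smo (57.5 ± 3.01 against 38.8 ± 3.16 CPM, 0.57) and the transcription factor Gli2 (11.4 ± 1.14 against 7.34 ± 0.334 CPM, 0.64) rose. Ptch1, the receptor and a target of the pathway, fell (21.9 ± 1.09 against 33.1 ± 1.15 CPM, -0.596), and Gli1, another target, was not called (4.08 ± 0.722 against 3.43 ± 0.471 CPM, adjusted p = 0.25). Neither target was called higher, while Cdon, Smo and Gli2 were.

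Wnt genes were higher in 22 and lower in 12 of 54 cases. Among receptors, Fzd1 was at 69.2, 66.8 and 61.1 CPM in KO and 31.7, 23.6 and 25.1 CPM in WT. The lowest KO library lay well above the highest WT library (log2 fold change 1.29, SE 0.10, adjusted p = 9.3e-08). The secreted activator Rspo3 (14.5 ± 1.22 against 5.44 ± 0.195 CPM, 1.42) rose, and the secreted modulators Sfrp5 (0.909 ± 0.306 against 4.602 ± 0.392 CPM, -2.33) and Dkk3 (58.7 ± 2.12 against 128 ± 6.38 CPM, -1.13) fell. Members of the list that Wnt signalling is known to induce had no common direction. Axin2 (28.3 ± 1.33 against 15.4 ± 2.01 CPM, 0.88), Sp5 (4.13 ± 0.4798 against 1.24 ± 0.332 CPM, 1.73), Nkd2 (0.68) and Lgr5 (2.05 ± 0.652 against 0.517 ± 0.275 CPM, 1.98) rose. Lgr5 had few reads, and its value was 0.61 with limma on log2(FPKM + 1). Tcf7 (-0.201) and Znrf3 (-0.22) were not called. Nkd1 (-0.27) and Rnf43 (-0.91) were called lower, with adjusted p up to 0.12 and 0.19 over the alternatives. Lef1 (0.398) and Notum (-1.09) were not called, with adjusted p down to 0.028 and 0.0104. The ligand Wnt7a, at 35.9 ± 1.76 against 37.7 ± 0.632 CPM, was not called (adjusted p = 0.40).

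Growth factor genes were split between families. In the EGF, neuregulin and neurotrophin list 17 of 27 genes were lower and 5 higher (median -0.38). Beside Tgfa, the neurotrophin Ntf3 fell, at 3.42, 3.08 and 3.15 CPM in KO and 9.62, 12.1 and 10.1 CPM in WT. Its groups did not overlap (log2 fold change -1.72, SE 0.13, adjusted p = 1.7e-08). The receptors Egfr (-0.38), Erbb4 (-0.54) and Ntrk2 (-0.42) fell by smaller amounts. In the FGF list 12 of 28 were lower, such as the ligand Fgf9 (2.27 ± 0.0893 against 5.53 ± 0.2102 CPM, -1.28), and 4 higher, such as the receptor Fgfr2 (0.403).

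Insulin and IGF genes had no common direction, with 9 higher and 6 lower of 29. Igf1, the ligand, was at 3.35, 3.01 and 3.02 CPM in KO and 13.2, 11.7 and 11.4 CPM in WT. The KO libraries agreed closely and were all lower (log2 fold change -1.95, SE 0.13, adjusted p = 2.4e-09). Igfbpl1, an IGF-binding-protein-like secreted protein, was at 571, 590.1 and 568 CPM in KO and 235, 245 and 227 CPM in WT. All KO libraries were higher (log2 fold change 1.29, SE 0.06, adjusted p = 1.1e-11), and the binding protein Igfbp3 rose as well (62.7 ± 3.15 against 26.5 ± 0.168 CPM, 1.24). The heparin-binding growth factor Mdk also rose (90.1 ± 2.37 against 43.6 ± 1.62 CPM, 1.05), as did Vegfa (0.899). Of 50 TGF-beta, activin and BMP genes 19 were higher, including the TGF-beta binding protein Ltbp1 (1.31) and the ligand Bmp3 (1.29), and 10 lower, including Gdf10 (-1.48). Hippo genes (12 higher and 6 lower of 27) leaned to the higher side, with the Hippo-pathway transcription factor Tead3 at 0.96. The Notch list (11 higher and 8 lower of 30) leaned little to either side, with the Notch ligand Jag1 at 0.82.

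Second messenger signalling was mostly lower in KO. Of 60 calcium-dependent kinases, phosphatases and binding proteins 45 fell and 3 rose (median -0.51). Camk2a, a calmodulin kinase that builds up as forebrain neurons mature, was at 65.8, 65.8 and 54.4 CPM in KO and 252, 193 and 205 CPM in WT. Every WT library was higher (log2 fold change -1.81, SE 0.12, adjusted p = 2.2e-06). The calmodulin-binding protein Nrgn (169 ± 25.7 against 346 ± 9.92 CPM, -1.04), the calcineurin subunit Ppp3ca (339 ± 12.1 against 533 ± 34.4 CPM, -0.65) and the protein kinase C member Prkch (3.91 ± 0.5097 against 16.01 ± 2.196 CPM, -2.03) fell too. Of 44 cAMP and cGMP genes 24 were lower and 7 higher, with the neuronal nitric oxide synthase Nos1 at -1.62 and the adenylyl cyclase Adcy2 at -1.496.

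G protein subunits and their RGS regulators followed, with 23 lower and 5 higher of 42. Gng7, a G protein gamma subunit enriched in striatum, was at 92.9, 91.6 and 87.4 CPM in KO and 219, 231 and 226 CPM in WT. The groups were well apart (log2 fold change -1.31, SE 0.05, adjusted p = 2.5e-12). Rgs5, which is also a pericyte marker, rose (108 ± 7.57 against 43.1 ± 4.36 CPM, 1.32). In the list of monoamine, acetylcholine, opioid, cannabinoid and related receptors 25 of 51 were lower and 5 higher (median -0.50). The melanocortin receptor Mc4r went against this, at 39.7, 40.7 and 51.96 CPM in KO and 8.76, 10.4 and 9.55 CPM in WT. KO replicate 3 was the highest and no KO value was near a WT value (log2 fold change 2.204, SE 0.16, adjusted p = 6.5e-07). The neuropeptide Y receptor Npy2r rose as well (1.52). Among 23 neuropeptide precursors and granins 16 were lower and 3 higher (median -0.93), with the substance P precursor Tac1 at -2.98 and the thyrotropin-releasing hormone precursor Trh at 0.96. Sums of striatal and interneuron markers fell in the same libraries, and their part in the second messenger, receptor and neuropeptide results was not tested.

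**Figure D3:**
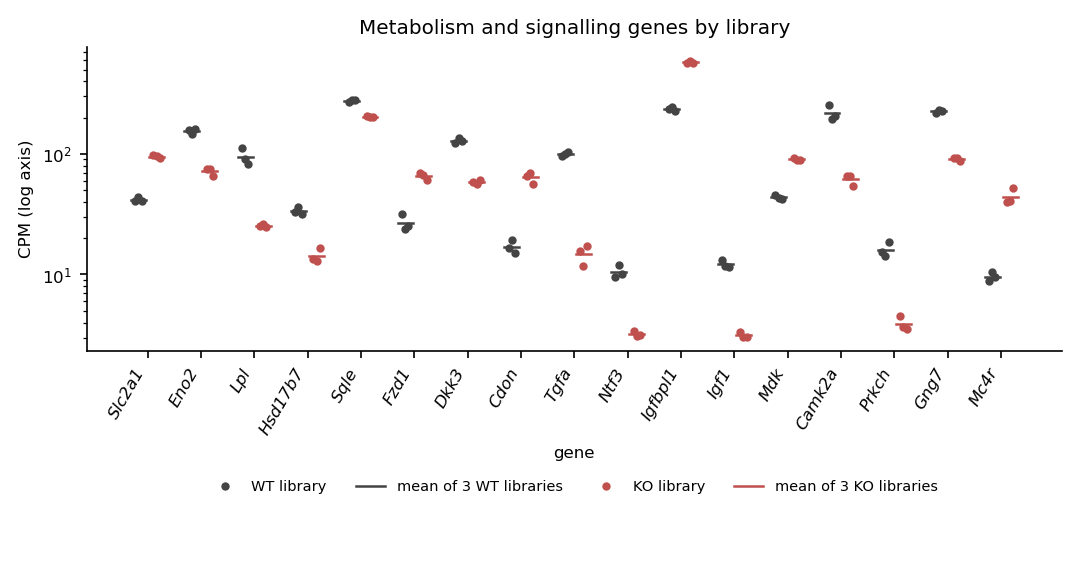
CPM (log axis) of metabolism and signalling genes in the 3 WT (grey) and 3 KO (red) libraries, with a bar at the mean of each group. Tgfa runs from 96.3 to 104 CPM in WT and 11.8 to 17.2 CPM in KO, and Cdon from 15.1 to 19.2 CPM in WT and 56.7 to 69.3 CPM in KO.

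Transcription factor families differed in direction. Factors of the E2F, MYB and p53 families, which govern the cell cycle, were higher in 16 of 20 cases and lower in 1 (median 0.47), with E2f2 at 4.07 ± 0.388 against 1.61 ± 0.127 CPM (1.34) and E2f7 at 1.22. In the list of nuclear factor I, ZIC, GLIS, BCL11 and related zinc finger factors 16 of 37 were higher and 8 lower. Nfib, a factor of cortical progenitors and deep-layer neurons, was at 796, 818 and 754 CPM in KO and 385, 382 and 302 CPM in WT. WT replicate 3 was the lowest, and all KO libraries were higher than all WT libraries (log2 fold change 1.15, SE 0.11, adjusted p = 1.4e-05). Nfix (0.88), Insm1, which promotes the formation of basal progenitors (120.1 ± 7.19 against 48.8 ± 5.29 CPM, 1.299), and Myt1 (1.03) also rose. Bcl11b, a factor of subcerebral and striatal projection neurons, fell (241 ± 5.69 against 341 ± 32.5 CPM, -0.505).

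Several factors of the ventral forebrain were lower in KO. Ebf1 (3.02 ± 0.467 against 31.8 ± 3.197 CPM, -3.398), Ikzf1 (0.977 ± 0.235 against 13.5 ± 0.923 CPM, -3.77), Foxp2 (10.2 ± 2.14 against 44.6 ± 3.36 CPM, -2.12) and Foxp1 (125 ± 8.05 against 236 ± 23.6 CPM, -0.91), all factors known from developing striatal neurons, fell, as did Nkx2-1 (0.851 ± 0.178 against 8.57 ± 2.67 CPM, -3.32), which patterns the medial ganglionic eminence. The striatal marker sum fell in the same libraries, and its part in these values was not tested.

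Other factors rose. Pou3f2, which acts in upper-layer neurons and their progenitors, was at 183, 180.2 and 189 CPM in KO and 71.3, 89.5 and 78.2 CPM in WT. All KO libraries were higher (log2 fold change 1.21, SE 0.16, adjusted p = 5.8e-04). The homeobox factors other than POU and LIM counted 13 higher and 18 lower of 54, and the POU and LIM factors 9 and 8 of 21. Nuclear receptors had 11 lower and 4 higher of 34, with the thyroid hormone receptor Thrb at 3.13 ± 0.672 against 10.2 ± 1.198 CPM (-1.702) and Nr2e1, a receptor of neural stem cells, at 25.2 ± 1.33 against 18.2 ± 0.912 CPM (0.47). Of 41 bZIP factors 13 were higher and 6 lower, with Creb5 (5.61 ± 1.18 against 1.28 ± 0.106 CPM, 2.12) and Maff (12.04 ± 2.17 against 2.88 ± 0.635 CPM, 2.06) rising. This list holds Fos, in which WT replicate 2 stood apart, and without that library the counts were again 13 and 6. They were 8 and 4 when only genes with few shared words were tested. The Sox list had 7 higher and 4 lower of 16, the endothelial factor Sox18 rising (1.104) and the oligodendrocyte factor Sox10 falling (-0.96).

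Matrix genes split by class. Collagens counted 7 higher and 7 lower of 29. Col25a1, a transmembrane collagen of neurons, was at 2.44, 2.06 and 2.56 CPM in KO and 20.1, 13.9 and 15.2 CPM in WT. Even the lowest WT library was far above the KO libraries (log2 fold change -2.797, SE 0.19, adjusted p = 8.6e-09). Col12a1, a fibril-associated collagen, was at 14.7, 15.1 and 17.5 CPM in KO and 5.103, 4.32 and 4.05 CPM in WT, the reverse order (log2 fold change 1.81, SE 0.12, adjusted p = 2.6e-09). Col6a1 fell (0.509 ± 0.2699 against 5.02 ± 0.292 CPM, -3.27).

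Among lecticans, tenascins and other brain matrix proteins 19 of 40 fell and 8 rose (median -0.30). The neural lectican Ncan fell by a small amount (775 ± 62.5 against 946 ± 59.5 CPM, -0.29), the hyaluronan receptor Cd44 by more (2.64 ± 0.418 against 11.2 ± 0.448 CPM, -2.08), and the secreted matricellular protein Ccn3 was at 8.05, 8.34 and 7.305 CPM in KO and 34.8, 36.3 and 33.8 CPM in WT. No Ccn3 value overlapped (log2 fold change -2.15, SE 0.09, adjusted p = 8.4e-12). The heparan sulfate proteoglycan Gpc4 rose (42.1 ± 1.76 against 18.9 ± 2.39 CPM, 1.15). Small leucine-rich proteoglycans and elastic fibre genes leaned the other way, with 11 higher and 3 lower of 24 (median 0.45), among them the elastin cross-linking enzyme Loxl1 (30.9 ± 4.03 against 14.8 ± 1.103 CPM, 1.06). Meningeal and fibroblast marker sums, which share this kind of gene, were 43.6 to 52.8 CPM in KO and 53.9 to 84.8 CPM in WT, with 3 of 11 tested members higher and 2 lower.

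Basement membrane genes were lower in 11 and higher in 5 of 31 cases. Among matrix proteases and their inhibitors 16 were higher and 19 lower of 49. Adamts1, a secreted protease that cleaves lecticans, was at 23.05, 24.1 and 18.5 CPM in KO and 5.74, 9.26 and 5.77 CPM in WT. KO replicate 3 was the lowest KO library and WT replicate 2 the highest WT library, and they did not overlap (log2 fold change 1.66, SE 0.19, adjusted p = 2.9e-05). The protease inhibitor Serpine2 fell (48.8 ± 2.07 against 102 ± 2.15 CPM, -1.06). Heparan and chondroitin sulfate enzymes counted 12 higher, such as the sulfotransferase Ndst3 (1.42), and 17 lower, such as Hs6st3 (-1.501), of 41.

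Adhesion molecules were more often lower than higher. The leucine-rich repeat and synaptic adhesion list had 35 lower and 9 higher of 56 (median -0.31), with the secreted synapse organizers Cbln4 (1.45 ± 0.411 against 8.63 ± 1.14 CPM, -2.57) and Cbln2 (8.94 ± 1.25 against 25.9 ± 4.16 CPM, -1.53) falling and Flrt3 rising (41.5 ± 1.3996 against 28.5 ± 2.55 CPM, 0.54). Immunoglobulin adhesion molecules and contactins had 30 lower and 13 higher of 57. Cntn4, an axonal contactin, was at 3.103, 4.19 and 4.52 CPM in KO and 19.01, 21.9 and 19.4 CPM in WT, a gap wider than the spread of either group (log2 fold change -2.35, SE 0.13, adjusted p = 3.2e-10). Kirrel rose (31.8 ± 0.0964 against 12.2 ± 0.803 CPM, 1.38).

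Cadherins went both ways, with 15 higher and 20 lower of 42 in a list that also holds catenins and nonclustered protocadherins. Celsr1, a seven-pass cadherin of planar cell polarity found in progenitors, was at 106, 110.1 and 106 CPM in KO and 42.1, 36.3 and 36.97 CPM in WT. The KO libraries were all higher and within a narrow range (log2 fold change 1.48, SE 0.12, adjusted p = 2.8e-06). Pcdh1 was at 88.7, 91.2 and 95.9 CPM in KO and 238, 214 and 229 CPM in WT, with every KO library lower (log2 fold change -1.303, SE 0.05, adjusted p = 8.0e-12), and Cdh22 fell too (5.82 ± 0.701 against 21.7 ± 4.59 CPM, -1.901). Integrins had 10 lower and 5 higher of 30, and tight and gap junction genes 8 and 3 of 25, with the astrocyte gap junction protein Gja1 at 25.9 ± 2.45 against 50.6 ± 7.01 CPM (-0.96).

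Axon guidance families held large changes in both directions. Plxnd1, a semaphorin receptor, was at 71.3, 62.9 and 61.8 CPM in KO and 221, 263 and 246 CPM in WT. All KO libraries were lower (log2 fold change -1.895, SE 0.08, adjusted p = 3.9e-11). Sema7a, a membrane-anchored semaphorin, fell (99.7 ± 0.842 against 204 ± 18.8 CPM, -1.03) and the secreted Sema3c rose (177 ± 11.7 against 86.1 ± 17.7 CPM, 1.04), and the family counted 8 higher and 13 lower of 31. Ntn1, the netrin ligand, was at 7.39, 6.55 and 6.08 CPM in KO and 56.2, 42.5 and 46.3 CPM in WT, far apart in every library (log2 fold change -2.86, SE 0.11, adjusted p = 2.2e-12). The Slit receptor Robo1 was at 464, 502 and 503 CPM in KO and 225, 240.3 and 202 CPM in WT, in the opposite order (log2 fold change 1.14, SE 0.06, adjusted p = 2.8e-10). Draxin, a secreted guidance cue of forebrain commissures, rose with it (269.8 ± 15.5 against 115 ± 16.2 CPM, 1.23). Of 21 ephrins and Eph receptors 9 were higher and 7 lower, with the ligand Efna1 at 1.05 and the receptor Epha8 at -1.24.

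**Figure D4:**
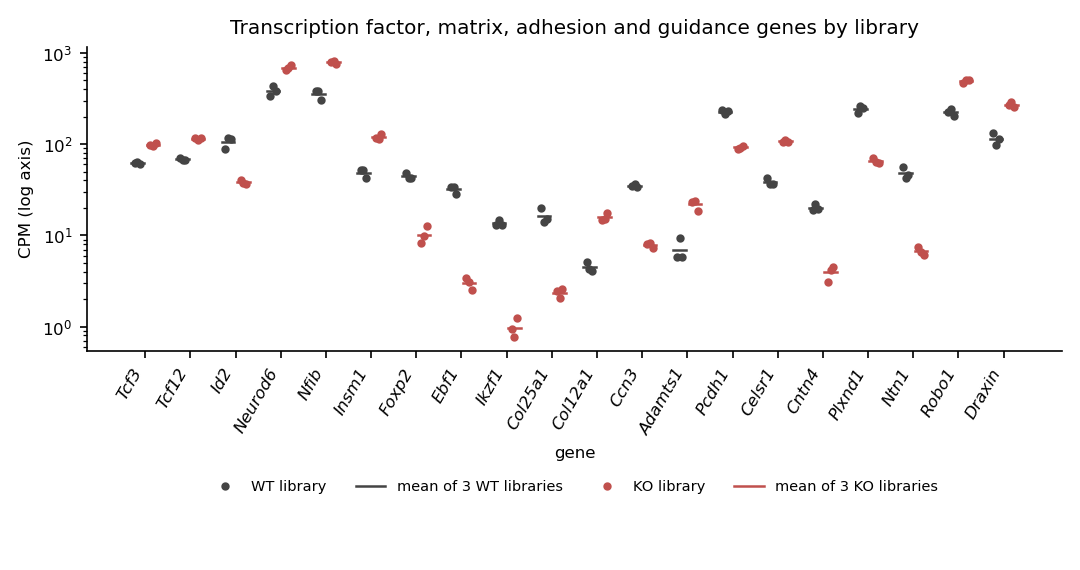
CPM (log axis) of transcription factor, matrix, adhesion and guidance genes in the 3 WT (grey) and 3 KO (red) libraries, with a bar at the mean of each group. Ntn1 runs from 42.5 to 56.2 CPM in WT and 6.08 to 7.39 CPM in KO, and Robo1 from 202 to 240.3 CPM in WT and 464 to 503 CPM in KO.

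Splicing, chromatin and DNA repair genes were more often higher than lower in KO, mostly by small amounts. SR and hnRNP splicing factors were higher in 33 of 50 cases and lower in 1 (median 0.23), and 2 of them reached 1.5-fold. The higher count ran from 15 to 34 over the alternatives, and fewer members were tested where genes sharing words were left out. The lists of neuronal RNA-binding proteins (12 higher and 11 lower of 34) and aminoacyl-tRNA synthetases (7 and 9 of 35) did not lean this way. Helicase genes with symbols starting in Ddx did, with 15 higher and 3 lower of 35, as did those starting in Dhx (8 and 2 of 15). Polycomb, DNA and histone methylation genes had 34 higher and 5 lower of 58, and BAF and other remodelling subunits 23 and 5 of 42. Tet2, which oxidizes methylcytosine, was at 44.5, 48.1 and 44.2 CPM in KO and 14.6, 14.2 and 10.6 CPM in WT. The 3 KO libraries were all higher (log2 fold change 1.795, SE 0.18, adjusted p = 3.4e-05). The histone demethylase Kdm5a (81.6 ± 2.45 against 33.97 ± 1.305 CPM, 1.26) and the remodeller Chd1 (59.96 ± 2.64 against 35.5 ± 1.83 CPM, 0.76) rose, and the maintenance methyltransferase Dnmt1 rose by less (201 ± 4.27 against 177 ± 3.96 CPM, 0.18). The Dnmt1 call was lost without KO replicate 1 or 2 or WT replicate 1 or 3 (adjusted p from 0.052 to 0.082). Of 59 DNA repair genes 32 were higher, such as the exonuclease Exo1 (0.92), and 2 lower, such as the glycosylase Neil1 (-0.78). Cortical progenitor marker sums were higher in the same libraries, and their part in these counts was not tested.

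Grouping protein-coding genes by the letters that start their symbols, which uses no measured value, gave 123 symbol families of at least 15 tested genes. Some of them overlap, such as Mrp with Mrpl and Mrps, and members that share a start of symbol need not be related. The Zfp family, zinc finger genes, many of them of unknown function, had far more higher than lower members. Of 360 tested members, 219 (60.8%) were higher in KO, 27 (7.50%) lower and 114 not called, against 26.1% higher and 27.7% lower among the other protein-coding genes. The median log2 fold change was 0.39, with an interquartile range of 0.12 to 0.75, and 37 members rose and 4 fell at least 2-fold. Many Zfp genes resemble each other, so reads could be split between copies. Among 201 members sharing under 5% of their 31-base words with other genes, 126 (62.7%) were higher and 20 lower (median 0.36), and among the 159 others 58.5% were higher and 4.40% lower. The higher count ran from 130 to 232 over the alternatives and the lower count from 20 to 28. Fewer members were tested where genes sharing words were left out.

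The rise was spread over the genome and over levels of expression. On each of the 12 chromosomes with at least 10 tested Zfp genes, a larger share of Zfp genes than of other protein-coding genes was higher in KO. On chromosome 7, with 87 of them, it was 60.9% against 23.1%, on chromosome 17, with 46, it was 71.7% against 29.1%, and on chromosome 2 it was 47.8% against 26.5%. Among Zfp genes with a mean log2 CPM of 5 or more, 57.95% were higher, against 26.0% of other protein-coding genes in that range, and between 3 and 5 it was 67.3% against 31.7%. Single changes were moderate: Zfp217 was at 13.7, 14.4 and 11.7 CPM in KO and 6.28, 5.08 and 3.96 CPM in WT (log2 fold change 1.38, SE 0.17, adjusted p = 3.9e-06), and Zfp619 rose by 1.27. All KO values of both lay above all WT values. Members with few shared words that fell included Zfp503, a factor of developing striatum (5.13 ± 0.646 against 19.9 ± 3.44 CPM, -1.95) and Zfp521 (15.4 ± 0.05305 against 30.9 ± 3.52 CPM, -1.01). The related Zbtb family had 19 higher and 8 lower of 40.

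**Figure D5:**
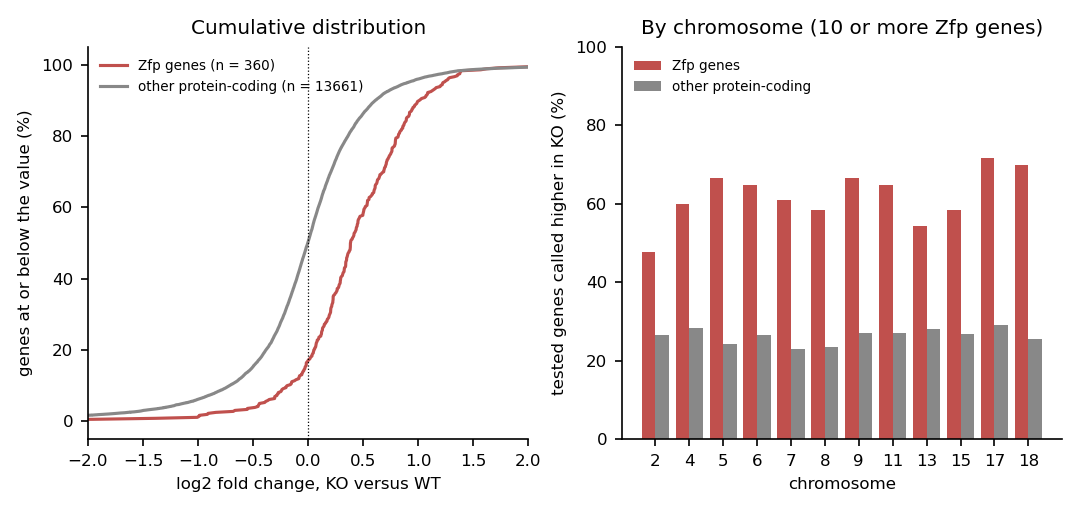
Left, cumulative share (%) of the 360 Zfp genes (red) and the other tested protein-coding genes (grey) at or below each log2 fold change of KO versus WT. Right, share (%) of tested genes called higher in KO on each chromosome with at least 10 Zfp genes. The Zfp curve lies to the right, with a median of 0.39 against 0.00, and the red bar is the taller one on every chromosome shown.

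Several other symbol families had more lower than higher members. Of 283 solute carriers 115 were lower in KO and 41 higher (median -0.17). Slc15a2, a peptide transporter, was at 8.37, 7.46 and 10.96 CPM in KO and 56.04, 61.5 and 55.8 CPM in WT, with every KO library lower (log2 fold change -2.69, SE 0.13, adjusted p = 2.0e-09), and the GABA transporter Slc6a11 fell (73.4 ± 6.24 against 251 ± 6.51 CPM, -1.77). Potassium channel genes (Kcn) had 37 lower and 9 higher of 66 (median -0.51), orphan receptors (Gpr) 25 and 8 of 57, and cytochrome P450 genes (Cyp) 11 and 3 of 23. Cyp26b1, which degrades retinoic acid, fell (13.8 ± 2.65 against 56.7 ± 2.86 CPM, -2.03), and Aldh1a3, which makes it, fell as well (0.5497 ± 0.0862 against 3.96 ± 0.748 CPM, -2.83). Transmembrane protein genes (Tmem) had 75 lower and 28 higher of 192, and synaptotagmins (Syt) 11 and 0 of 18. The Abc transporters, with 9 higher and 8 lower of 37, and the tetraspanins (Tspan), with 5 and 5 of 16, were balanced. The palmitoyltransferases (Zdhhc) counted 13 lower and 2 higher of 21, and the centrosomal Cep genes 17 higher and 1 lower of 36.

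Of the 15 genes outside the lists with the largest rises under the rule for named genes, 3 had a mean log2 CPM of 5 or more, namely Arhgap28, Ncapd2 and Hjurp. Arhgap28, a GTPase-activating protein, was at 52.99, 60.3 and 55.4 CPM in KO and 10.5, 12.4 and 13.1 CPM in WT. Every KO library was far above every WT library (log2 fold change 2.23, SE 0.10, adjusted p = 1.5e-11). Hjurp, the chaperone of the centromeric histone, was at 65.8, 69.997 and 71.98 CPM in KO and 17.7, 17.4 and 19.3 CPM in WT, again with no overlap (log2 fold change 1.93, SE 0.07, adjusted p = 2.3e-12). Fam135b (2.01), the putative tRNA methyltransferase Trmt9b (1.97) and the transcription factor Tfap2c (17.5 ± 0.778 against 4.49 ± 0.387 CPM, 1.96) rose. Rec8, a meiotic cohesin subunit, was at 7.57, 7.35 and 11.6 CPM in KO and 0, 0.401 and 0 CPM in WT, and no fold is given because the WT libraries held only a few reads of it. Large falls outside the lists included Itpka, an inositol trisphosphate kinase of dendritic spines (1.13 ± 0.1299 against 11.8 ± 1.13 CPM, -3.38), Strip2 (1.37 ± 0.0356 against 14.1 ± 1.49 CPM, -3.35) and the proline transporter Slc6a7 (3.99 ± 0.347 against 35.2 ± 6.49 CPM, -3.14).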

How the data were processed

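Dorsal telencephalon RNA of 3 KO, 3 WT and 3 Het libraries (NEBNext Ultra kit, per the labels' protocols) had been sequenced by the authors. Raw read counts for each gene were deposited by the authors, with a second table of FPKM values, which divide the same counts by gene length and library total. The submitters' processing notes name, without roles, HTSeq 0.6.1, DESeq 1.10.1, TopHat2 2.0.9 and Bowtie2 2.0.6, on mm10. Strandedness and the treatment of multiply matching reads are not given in the sources used here.

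Of 41128 genes, 40254 matched a symbol and position in GENCODE M21 (mm10). Counts were fitted with edgeR 4.0.16 in R 4.3.3: filterByExpr (minimum count 10, minimum total 15) kept 15271 genes, followed by TMM scaling, robust quasi-likelihood fitting over the 9 libraries (6 residual degrees of freedom), the contrast KO minus WT, and Benjamini-Hochberg adjustment over all tested genes at 0.05. Adjusted p-values in the report are from this edgeR test. Those given over the alternatives or without a library come from those other fits. CPM values use TMM-scaled library sizes. The SE is that of the log2 fold change. Sample depth limits genes with few counts. On simulated counts for 15109 genes of KO versus WT, the procedure found 58.2% of the 67 with a 1.5-fold change. It found 89.6% of the 67 with a 2-fold change and 95.5% of the 66 with a 4-fold change, and made 7 false calls. Far fewer genes were changed in the simulation than were called in the data, and recovery was not split by depth. These shares may therefore differ from those in the data.

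The gene lists, the comparison and the rules were chosen with earlier results of these data known. Lists are described by counts and medians, with no test. Named genes are, in each list, the 3 called members with the highest and the 3 with the lowest log2 fold change whose KO and WT values did not overlap and whose log2 CPM averaged 1 or more, and outside the lists the 15 most changed in each direction with under 5% of their 31-base words in transcripts of other genes. Part of these are printed. Other printed members were chosen for their role after values were seen (Axin2, Bcl11b, Camk2a, Cyp26b1, Dhcr7, Dnmt1, Egfr, Erbb4, Fasn, Gli1, Gli2, Id1, Id3, Id4, Lef1, Lgr5, Mvd, Ncan, Neurod2, Neurod6, Nfix, Nkd1, Nkd2, Notum, Nrgn, Ntrk2, Ppp3ca, Rnf43, Slc6a11, Smo, Sqle, Tcf12, Tcf3, Tcf7, Wnt7a, Znrf3 and the 4 Zfp genes). Overlapping genes on the other strand could add reads to Adcy2, Axin2, E2f7, Gli1, Id4, Kdm5a, Lef1, Nfix, Nos1, Notum, Rspo3, Slc2a1, Tet2 and Tgfa, and Gli1, Lef1, Notum and Rspo3 share at least 5% of their words with other genes, whose values are therefore uncertain. RefSeq promoters (GRCm38.p6) were searched for words with Python 3.11.15, and figures were drawn with matplotlib 3.10.9. Alternatives were other scaling factors (RLE, upper quartile, library totals), other filters, DESeq2 1.42.0, limma 3.58.1 on log2(FPKM + 1) and log2(FPKM + 0.1), only KO and WT libraries, a replicate block, only genes with few shared words, and leaving out each library.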

Additional observations from a re-analysis of the deposited data

How the results depend on the processing

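The 8061 calls became 5694 when only the 10256 genes with under 5% of their words shared were tested, and between 7716 and 8409 under the other scaling factors, filters and tools. Leaving out 1 library at a time gave 7050 to 8365 calls, with 3532 to 4220 higher and 3518 to 4145 lower, and 3229 to 3505 changes of at least 1.5-fold, of which 1546 to 1685 were higher and 1671 to 1825 lower. Limma on log2(FPKM + 1) gave 2075 changes of at least 1.5-fold, 1057 higher and 1018 lower, against 3420, 1650 and 1770, since the added 1 compresses the change of genes with low values. The share of calls on the higher side was 50.1%, and 48.4% to 55.9% under the alternatives. It was not moved by 10 percentage points. The replicate numbers of KO and WT did not pair the samples (correlations of deviations 0.03, -0.02 and -0.02, and no sample matched its own number best). With the replicate block 7775 genes were called, 3908 higher and 3867 lower, and 3384 at least 1.5-fold. Over the 20 alternatives, 3175 values of 159 printed genes were recomputed: 3136 kept their direction and their side of the threshold, 22 lost the call (Dnmt1, Nkd1 and Rnf43), and 17 gained one (Lef1, Notum, Tcf4 and Id1), and none of them reversed. Counts of the lists and symbol families stayed within 1.5 times the main count in 8353 of 8836 cases. For some lists and symbol families printed with unequal counts, the larger side changed under an alternative. These were the meningeal markers, the neuronal RNA-binding proteins, the aminoacyl-tRNA synthetases and the Abc transporters. Depth limits genes with few reads, whose falls towards 0 have no firm size.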

Other observations

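Several gene groups had smaller shares of called members than the 52.8% over all genes. Of 56 ribosome biogenesis genes 10 were higher, 6 lower and 40 not called, and none of them was called at 1.5-fold. Translation factors (7 higher and 7 lower of 51) and proteasome genes (9 and 4 of 41) were also mostly not called. Their higher counts ran from 4 to 16 and from 5 to 17 over the alternatives. The neuronal elongation factor Eef1a2 fell (259 ± 12.9 against 434 ± 14.1 CPM, -0.75). The lysosome and autophagy list was called about as often as all genes (55.9%), and of its 68 members 26 were lower and 12 higher, with the glucuronidase Gusb at -0.63. Microglial marker sums fell in the same libraries, and their part was not tested.

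Cytoskeletal genes divided by function. Tubulins and microtubule-associated proteins were lower in 20 and higher in 7 of 49 cases, with the doublecortin-like kinase Dclk3 at 6.62 ± 0.8903 against 31.3 ± 1.88 CPM (-2.24), while the intermediate filament gene of progenitors, Vim, rose (293 ± 12.3 against 138 ± 5.08 CPM, 1.09). Microtubule motors had 18 higher and 13 lower of 46, the axonal transport kinesin Kif1a being lower (919 ± 45.96 against 1393 ± 37.5 CPM, -0.599). Among glucocorticoid and hypoxia response genes 13 of 31 were higher and 9 lower, the carbonic anhydrase Car12 (7.29 ± 0.398 against 1.61 ± 0.601 CPM, 2.18) and the mTOR inhibitor Ddit4 (224 ± 35.5 against 115 ± 8.74 CPM, 0.97) rising and the glucocorticoid and thyroid hormone target Klf9 falling (14.6 ± 1.26 against 33.3 ± 2.999 CPM, -1.19).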
